A study of Caenorhabditis elegans with 2 samples.

Results

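MicroRNA genes were the 261 nuclear genes of Caenorhabditis elegans that carry the biotype miRNA in the Ensembl annotation of WBcel235, of 46890 nuclear genes in all. They were defined by annotation alone, so no binding value entered the definition. The genes were short, with a median length of 95 bp and a range of 52 to 1732 bp, the longest entry being that of let-7. Of these genes, 152 stood alone outside every protein-coding gene, 97 lay in an intron of one, and 12 overlapped a coding-gene exon. Among the intronic genes, 67 had the strand of their host and 30 the opposite strand.

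Binding of ATTF-5, named as an AT-hook transcription factor, had been mapped in whole worms by ChIP-seq. All animals were of strain OP724, which carries the unc-119(tm4063) mutation and the transgene wgIs724, made of attf-5 fused to TY1, EGFP and 3xFLAG with an unc-119(+) rescue. They were young adults of 66 h with the sexes pooled, synchronised as starved L1 larvae after bleaching, and the precipitation was described as anti-GFP although another label gives the antibody as attf-5. The design has 1 group of 2 biological replicates, numbered 1 and 3, with no second condition, so each result below is a description without a test. The animals share 1 strain and 1 transgene, and the sequence that drives the transgene is not stated in the sources used here. In whole animals, strong binding in few cells and weak binding in many cannot be told apart.

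The values are summits of ChIP-seq regions in ce11 coordinates, which have the WBcel235 sequence, each with a signal value on the authors' own enrichment scale. Regions that passed the authors' reproducibility threshold are called peaks here. There were 3331 of them, with signals from 89.6 to 2844 and a median of 142.7. The pooled list held 30000 regions, the replicate 1 list 30000 and the replicate 3 list 28299, and these longer lists reach down to weak q-values (lowest −log10 q 0.0602, 0.0608 and 0.0177). A microRNA gene was called bound when a peak summit fell inside it, up to 200 bp from either end, or up to 1000 bp upstream on its strand. These are the near and the upstream window.

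A microRNA is cut from a hairpin in a longer primary transcript. In the nucleus Drosha and its partner Pasha release the hairpin, Dicer trims it in the cytoplasm, and an Argonaute protein (ALG-1 or ALG-2 in the worm) loads the mature strand. Bases 2 to 8 of that strand, the seed, pair with target mRNAs, and microRNAs with the same seed form a family with overlapping targets. The annotated gene is the hairpin, whose 5′ end is not the start of the primary transcript, and an intronic hairpin can be made from its host's transcript or from a promoter of its own. The worm is where the first microRNAs, lin-4 and let-7, were found as regulators of developmental timing.

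The mir-51 family, related to miR-99 and miR-100 of other animals and needed redundantly for embryonic development, had a peak at every member. Its mature strands, read from the RefSeq WBcel235 genome on the gene's own strand and written 5′ to 3′ with the seed in capitals, are shown because all 6 hairpins sit near peaks at 4 places on chromosomes IV and X.
mir-51: tACCCGTAgctcctatccatgtt
mir-52: cACCCGTAcatatgtttccgtgct
mir-53: cACCCGTAcatttgtttccgtgct
mir-54: tACCCGTAatcttcataatccgag
mir-55: tACCCGTAtaagtttctgctgag
mir-56: tACCCGTAatgtttccgctgag

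A second family shared the seed of the 4-gene cluster of mir-229, mir-64, mir-65 and mir-66, which has been linked to survival of heat stress. The strand of mir-63, on chromosome X and with no peak, is given for comparison. Below it are mir-80 and mir-58a of the bantam-related mir-58 family, among the most abundant microRNAs of the worm, whose seeds differ at the last base.
mir-229: aATGACACtggttatcttttccatcg
mir-64: tATGACACtgaagcgttaccgaa
mir-66: cATGACACtgattagggatgtga
mir-63: tATGACACtgaagcgagttggaaa
mir-80: tGAGATCAttagttgaaagccga
mir-58a: tGAGATCGttcagtacggcaat

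ATTF-5 peaks stood at 35 of the 261 microRNA genes, mostly upstream of the hairpin. A peak summit within 1000 bp upstream was found for 33 of the 261 genes (12.6%), and the background share was 6.72% of the 46629 other nuclear genes and 11.6% of protein-coding genes. The near window held a summit at 12 genes (4.6%), beside 6.77% of other nuclear genes and 9.98% of protein-coding genes. Either window held a summit at 35 genes (13.4%), and 10 genes had a summit in both windows. The near window spans 495 bp at a gene of median length, against 1000 bp upstream, and the last 200 bp belong to both, so the counts in the windows are not on 1 scale. The same share was 10.2% of other nuclear genes and 16% of protein-coding genes. The count over other genes is pulled down by 15363 piRNA genes, of which 1.13% were bound, and without piRNA genes it was 14.7%. By either window the share of bound microRNA genes thus lay near that of genes other than piRNA genes. The near and either windows include the gene itself and grow with its length, so across gene types these shares are unlike measures. In the upstream window, of 1 length for all genes, the share without piRNA genes was 9.52%, beside 12.6% of microRNA genes. This difference was not tested.

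Other short RNA genes differed widely from microRNA genes in the same windows. Of the 612 tRNA genes, 48% had a summit near and 22.4% upstream. Of the 346 snoRNA genes, which guide modification of other RNAs, 24% had one near and 30.9% upstream. The 129 spliceosomal and related snRNA genes had 14% and 10.9%. In tRNA and snRNA genes the near window thus held the larger share, and in snoRNA and microRNA genes the upstream window. Pseudogenes had 1.36% and 1.46%.

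**Figure D1:**
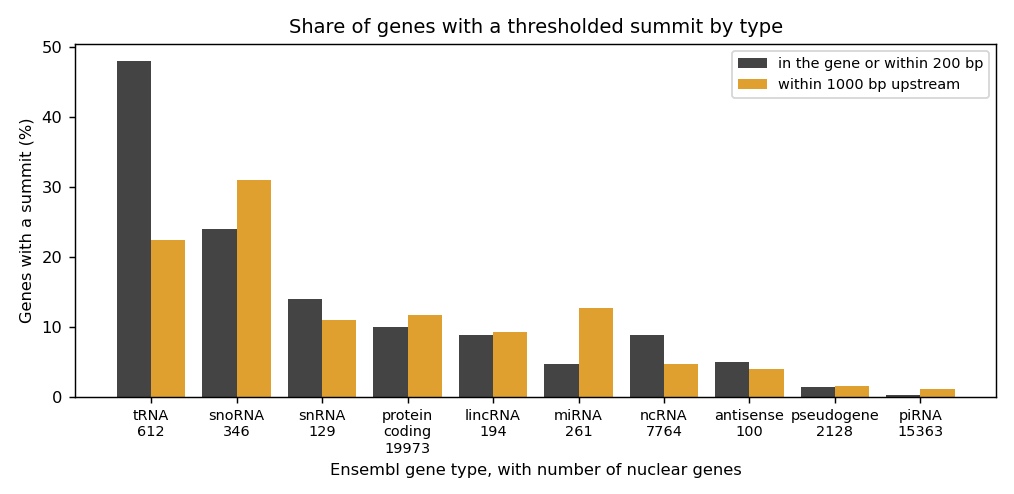
Percent of nuclear genes of each Ensembl type with a peak summit in the gene or within 200 bp (dark bars) and within 1000 bp upstream (light bars); numbers under the types are genes. The microRNA bars stand at 4.6% and 12.6%, and tRNA genes lead the first window with 48%.

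The longer lists gave the same order of windows. In the pooled list 52 microRNA genes (19.9%) had a summit near and 109 (41.8%) upstream, where other nuclear genes had 29.9% and 23.4%. Without piRNA genes these shares were 43.9% and 32.3%, and for protein-coding genes 50.1% and 34.3%. In replicate 1 the counts were 68 (26.1%) and 112 (42.9%), beside 30.8% and 23.7% of other genes. In replicate 3 they were 56 (21.5%) and 107 (41%), beside 31.7% and 24.5%. All 35 bound genes had a summit in their windows in both replicate lists. This is not separate support, since peaks were selected from these lists for reproducibility. The lists also held a summit at 47.9% (replicate 1) and 45.6% (replicate 3) of all microRNA genes. Of the 226 others, 54 had a summit in the pooled and both replicate lists without passing the threshold, and 105 had none in any list.

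The 35 bound genes were served by 31 peaks, 0.931% of all 3331. Each of 3 peaks served more than 1 gene, and mir-52 and mir-4934 had 2 peaks each. Grouping hairpins on 1 strand with gaps of at most 2000 bp gave 222 loci, of which 29 (13.1%) were bound, close to the share by gene. By chromosome, 9 of 27 genes on III were bound (33.3%), 8 of 50 on IV (16%), 6 of 49 on II, 4 of 33 on I, 7 of 74 on X (9.46%) and 1 of 28 on V. Of the 9 on chromosome III, 4 share a single peak. Shares of other genes by chromosome were not counted, so these differences cannot be read as particular to microRNA genes.

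The summits gathered in the last 400 bases before the hairpin. Of the 31 peaks, 28 lay upstream of the nearest microRNA gene they served, at a median of −244 bp from its 5′ end, and 25 of these were within 400 bp. The windows reach 1000 bp upstream but only 200 bp past the gene, so an upstream majority among the 31 is in part built in. All peaks within 2000 bp of a hairpin were then placed by the nearest microRNA gene, whether or not they fell in its windows. Of these, 23 lay in the 400 bp before the 5′ end, none between 400 and 500 bp, and 3 further out, up to 1000 bp. Another 9 lay from there to 1500 bp upstream and 10 from 1500 to 2000 bp. Inside the annotated gene there were 2 summits, at mir-4936 and mir-8209, and 6 lay in the 500 bp past a gene's end. A further 7 lay from 500 to 1000 bp past the end and 5 from 1000 to 2000 bp.

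**Figure D2:**
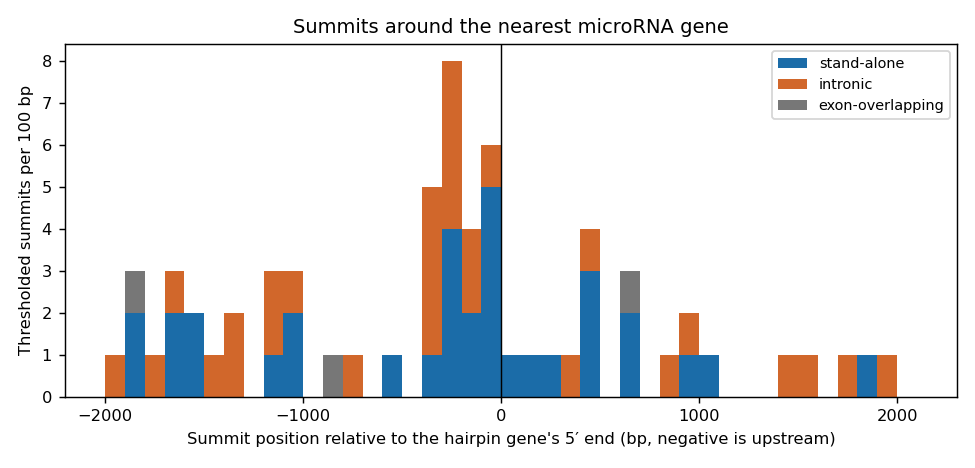
Number of peak summits per 100 bp by distance from the 5′ end of the nearest microRNA gene (bp, negative is upstream), coloured by the class of that gene. The bins from −400 to 0 bp hold 5, 8, 4 and 6 summits.

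The strongest peak in a window was that of mir-354, which overlaps an exon of the ribosomal protein gene rps-20. Its signal was 839.6, rank 23 of all peaks, with 449 in replicate 1 and 383 in replicate 3. The summit was 862 bp upstream of the hairpin but only 147 bp upstream of ekl-4, in the promoters of rps-20 and ekl-4. The next was mir-5549, a stand-alone gene, with 514.8 (replicates 264 and 248). Its summit was 15 bp upstream of the hairpin and also in the promoters of eef-1A.1, a translation elongation factor, and rfc-4, a replication factor C subunit 153 bp away. Both peaks were high in both replicates, and at neither can the microRNA gene be told apart from its coding neighbours as the feature bound.

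The strongest peak away from coding promoters was that of the mir-229 cluster, at III:2171846-2172357. Its signal was 452.7, rank 140, with 228 in replicate 1 and 226 in replicate 3. The summit was 297 bp upstream of mir-229 (III:2172452-2172566, plus strand) and 693, 847 and 953 bp upstream of mir-64, mir-65 and mir-66. The cluster lies in an intron of gcn-1, homologue of a yeast translational regulator, on its strand. The summit was 20210 bp into gcn-1 from its annotated 5′ end, and no peak lay in the promoter window of gcn-1. The other gene with that seed, mir-63, had no peak.

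Within the mir-51 family the replicate values differed between loci. At mir-51 (IV:11026013-11026112, minus strand) the signal was 288.1, with 189 in replicate 1 and 104 in replicate 3, and the summit lay 100 bp upstream. At mir-53 (IV:11027593-11027691, minus strand) the signal was 113.1, with 59.3 and 54.4, and the summit lay 93 bp upstream. The mir-51 hairpin follows mir-53 on the same strand, and the stronger peak lay between them.

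At mir-52 (IV:14034008-14034107, plus strand) there were 2 peaks. The peak 538 bp upstream had a signal of 185.2, with 125 in replicate 1 and no summit within 100 bp in replicate 3. The peak 327 bp upstream had 131.0, with 61.0 and 64.7. Within that distance replicate 3 thus held a summit only at the nearer of the mir-52 peaks.

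The hairpins of mir-54, mir-55 and mir-56 lie together on chromosome X, antisense in an intron of F09A5.3. Their shared peak had a signal of 222.0, with 120 in replicate 1 and 104 in replicate 3, and lay 267 bp upstream of mir-54, 437 bp of mir-55 and 574 bp of mir-56. Another peak, of 164.7 (96.6 and 68.6), lay at the opposite end of the cluster, 389 bp upstream of mir-55b, a hairpin annotated antisense to mir-55. The 2 peaks flank the cluster. No peak of the mir-51 family lay in the promoter window of a protein-coding gene.

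**Figure D3:**
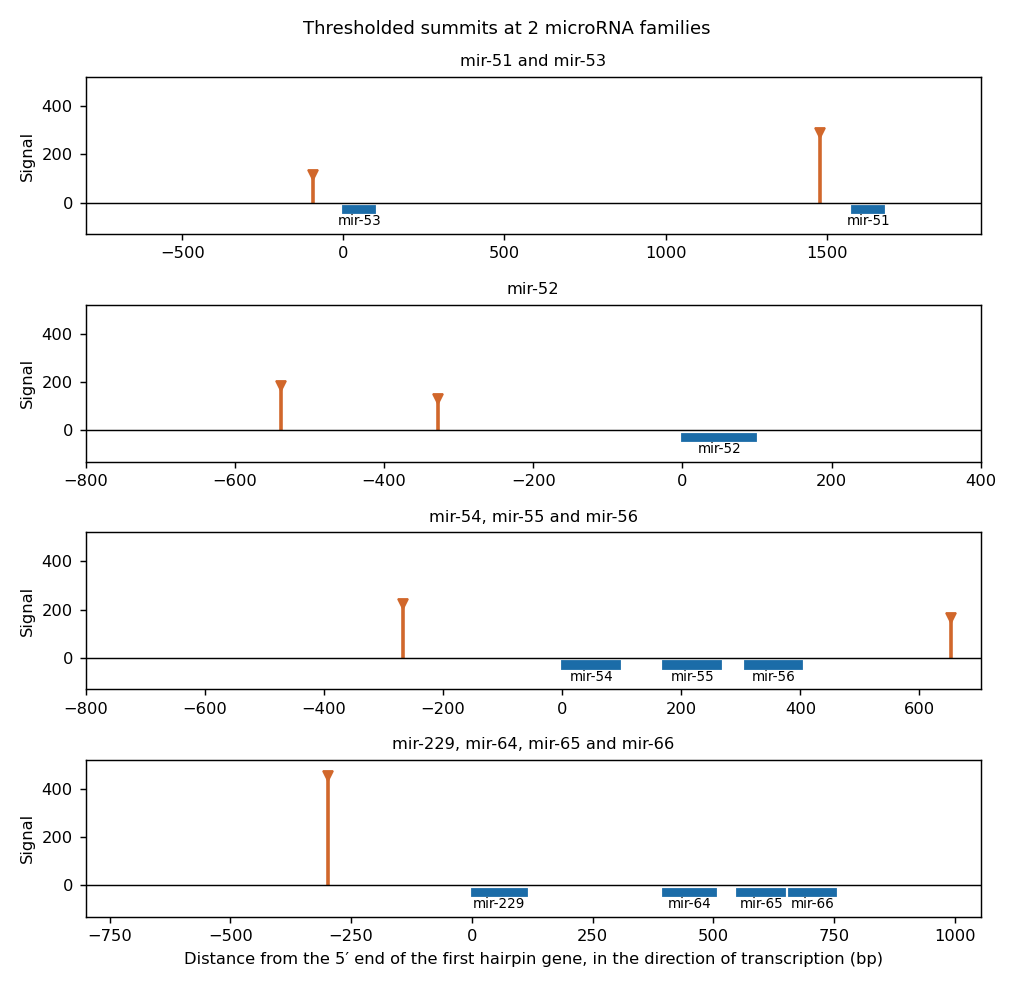
Peak signal (authors' scale, vertical) at the loci of the mir-51 family and the mir-229 cluster, by distance in bp from the 5′ end of the first hairpin in the direction of transcription; boxes are hairpin genes. Each hairpin or cluster has a peak upstream of it, from 113.1 at mir-53 to 452.7 at mir-229, and the peak at the right of the mir-54 panel is the 1 upstream of the antisense mir-55b.

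The mir-58 family was bound in part. Of the 6 genes with the seed of mir-80 only mir-80 had a peak, of 197.8 at 258 bp upstream, with 47.6 in replicate 1 and 90.9 in replicate 3. Replicate 1 held another, stronger summit of 107 in the windows of mir-80. The related mir-58a had a peak of 147.0 (69.6 and 79.4) at 363 bp upstream, in an intron of Y67D8A.2. Neither mir-81 nor mir-82 had a peak. The highest pooled signal in the windows of mir-81 was 35.9, with 34.3 in replicate 1 and nothing in replicate 3. No list held a summit at mir-82.

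Across all families, 16 seeds were shared by at least 3 genes. Every gene was bound for 1 of these, the mir-51 seed, and no gene for 10. Of all microRNA genes 13.4% were bound, and members of a family can share a peak. How many families without a bound gene that share alone would give was not worked out. The 8 genes with the mir-35 seed, needed for embryonic development, were among the unbound. The pair mir-239a and mir-239b, divergent genes linked to stress resistance and lifespan, lay on either side of 1 peak of 124.0, at 200 bp upstream of mir-239a and 846 bp of mir-239b. That peak had 92.0 in replicate 1 and 39.5 in replicate 3, a log2 ratio of 1.22. Replicate 3 held another, stronger summit of 63.5 in the windows of both genes. The gene mir-238, with the same seed, had no peak. A small nucleolar RNA gene, C34E11.20, also lay within 200 bp of the shared summit.

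Of the remaining bound genes, several have known roles. The intronic mir-71, which promotes long life and stress resistance, had 116.8 at 361 bp upstream, with 75.2 in replicate 1 and 26.5 in replicate 3, the largest log2 ratio among the 29 peaks that could be compared, at 1.51. That replicate 3 region ranked 7891 in its list, and a stronger replicate 3 summit in the windows of mir-71, of 37.3, ranked 4468. At mir-243, known for its loading into the RNAi Argonaute RDE-1, the peak of 129.8 (70.0 and 64.5) lay 716 bp upstream and nearer to the 5′ end of its host R08C7.12, 324 bp into it. At mir-83, related to miR-29 and known in gonad cell migration, the peak had 101.7 (40.9 and 51.7) at 221 bp upstream. At mir-60, an intestinal microRNA, it had 91.0 (41.3 and 46.4) at 93 bp upstream.

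The rest of the bound genes are little studied or their roles are not given here. The intronic mir-5595 had a peak of 388.5 (192 and 195) at 147 bp upstream, antisense to the chromatin remodelling gene nurf-1, whose nearest annotated transcript start was 276 bp from the summit. The stand-alone mir-8186-2 had 371.8 (201 and 167) and shared its peak with the promoter of gmeb-1. At mir-4934 the peaks of 194.7 (110 and 84.9) and 89.8 (44.9 in replicate 3, none in replicate 1) fell between mtr-4, an RNA helicase of the nuclear exosome, and catp-6. In the same way mir-2218a (198.6; replicates 120 and 75.7) shared its peak with maea-1, mir-253 (164.4; 73.2 and 93.4) with F44E7.5, and mir-4920 (138.2; 64.4 and 76.4) with sph-1. Further genes in this state were mir-800 (133.6; 62.6 and 66.3) with R04A9.3, mir-4936 (121.0; 72.3 and 42.9) with nduf-9, and mir-77 (107.9; 52.7 and 56.5) with srh-70 and ceh-99.

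Away from the annotated 5′ ends of coding genes, mir-2214 had 158.6 (88.2 and 75.3) and mir-90 had 145.6 (76.4 and 69.6). At mir-4929, where an annotated transcript start of its host E01G4.3 lay 179 bp from the summit, the values were 125.7 (49.5 and 82.1), at mir-72 they were 95.7 (32.5 and 59.7), and at mir-8209 they were 93.4 (58.9 and 37.9). The last 3 lay below the median signal of all peaks, and the replicates differed in either direction.

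**Figure D4:**
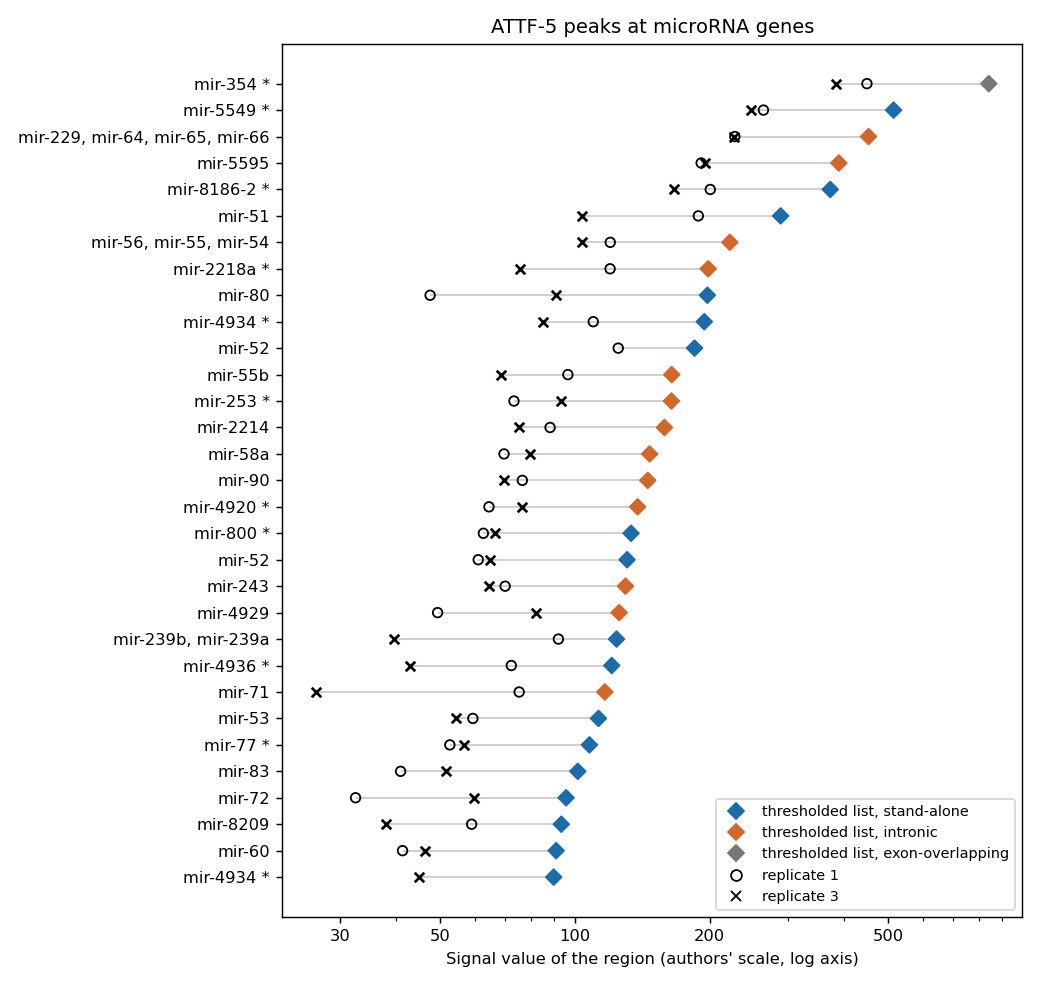
Signal of the 31 peaks at microRNA genes (authors' scale, log axis) in the thresholded list (diamonds, coloured by class of gene) and of the matching region within 100 bp in replicate 1 (circles) and replicate 3 (crosses); an asterisk marks peaks also in a protein-coding promoter window. Signals run from 89.8 to 839.6, and 1 replicate value is missing at a peak of mir-52 and at a peak of mir-4934.

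Fewer peaks at microRNA genes shared their place with a coding promoter than peaks in general. A promoter window, from 1000 bp upstream to 200 bp downstream of a protein-coding gene's 5′ end, held 11 of the 31 summits (35.5%) and 1891 of all 3331 (56.8%), a difference that was not tested. When every annotated transcript start was used, 13 of the 31 lay in a window, and 18 peaks at 23 genes lay in none. A coding 5′ end was nearer to the summit than the hairpin at 4 peaks, those of mir-354, mir-253, mir-4920 and mir-243. Another noncoding gene lay within 200 bp of 11 of the peaks. The counts by transcript start, by nearer 5′ end and by noncoding gene were not made over all peaks. They cannot be read as particular to microRNA genes.

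Intronic hairpins were bound more often than stand-alone ones by either window, but the near window alone went the other way. The near window held a peak summit at 3.09% of intronic and 5.92% of stand-alone genes, and the upstream window at 18.6% and 9.21%. Of the 97 intronic genes 18 were bound (18.6%), of the 152 stand-alone genes 16 (10.5%), and of the 12 that overlap exons 1. By loci the shares were 13 of 84 (15.5%) and 15 of 127 (11.8%), since 1 intronic peak serves 4 genes and another 3. The difference was not tested. In the pooled list 59.8% of intronic and 38.8% of stand-alone genes had a summit, beside 37% of other nuclear genes, 52.4% without piRNA genes and 57% of protein-coding genes. Among other types the 2 classes were closer, with 53.0% of intronic and 52.0% of stand-alone tRNA genes and 39.6% and 37.9% of snoRNA genes. In the genome as a whole, 2.56% of intron bases and 3.69% of bases outside coding genes had a peak summit within 1000 bp on the upstream side.

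Intronic genes on the host's strand were bound in 13 of 67 cases (19.4%), and those on the opposite strand in 5 of 30 (16.7%), again with no test of the difference. The hosts ppfr-1, E01G4.3 and nurf-1 had a peak in the promoter window of their annotated 5′ end, and at sph-1 and F44E7.5 the peak in that window was the peak of the hairpin itself. The hosts gcn-1, Y67D8A.2, K01F9.2, B0361.11, R08C7.12, W09G3.8 and F09A5.3 had none by that 5′ end, although the mir-2218a peak lay in the window of another annotated transcript start of W09G3.8. Hairpins in hosts without such a peak lay from 1040 bp (R08C7.12) to 21163 bp (gcn-1) from the host's 5′ end.

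Signals at microRNA genes were those of an ordinary peak. Their median was 145.6 (quartiles 118.9 and 198.2), against 142.6 for the other 3300 peaks, with 16 above and 15 below the median of all peaks. Summits within 100 bp were found in both replicate lists for 29 of the 31. Replicate 1 was higher at 17 of these and replicate 3 at 12. On the log2 scale, replicate 1 over replicate 3 had a median ratio of 0.12 (SD 0.56, 29 peaks), beside 0.12 (SD 0.52) for all peaks. At the 5 strongest peaks the log2 ratio ran from −0.03 to 0.27.

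**Figure D5:**
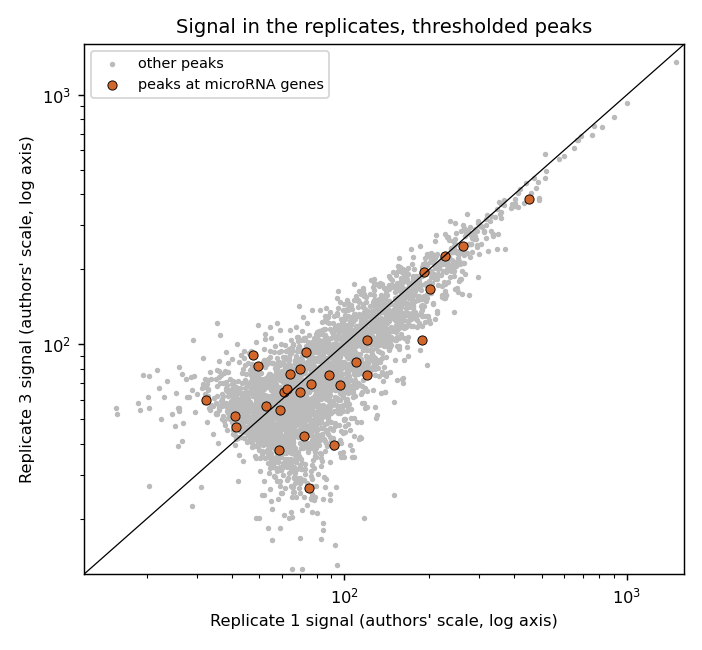
Signal of each peak in replicate 1 and in replicate 3 (authors' scale, both axes log), with the line of equal signal; grey points are other peaks and orange points the 29 peaks at microRNA genes matched in both. The orange points lie on both sides of the line, 17 below it and 12 above.

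The DNA under the peaks was read for base composition, since AT-hook proteins are named for a motif that contacts AT-rich DNA. In the 101 bp around the summit, AT content at microRNA genes had a median of 51.5% (35.6 to 67.3%), against 53.5% at other peaks. In the flanks, from 150 to 200 bp on either side, it was 61.0% and 64.0%. The median difference between centre and flank was −5.51 percentage points at microRNA genes and −10.5 at other peaks. The 20 microRNA peaks outside coding promoters had 48.5% at the centre and 55.0% in the flanks, and the 11 in coding promoters had 54.5% and 64.0%. The lowest value was at mir-80 and the highest at mir-83.

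Short words were then counted in these centres, both strands together. GAGAGA (or TCTCTC) and ACGCAG (or CTGCGT) were taken, after their counts were seen, as the 6-base words with the greatest gain from flank to centre in the 3300 peaks away from microRNA genes. GAGAGA stood in 26.4% of those centres and in 10.2% of flanks, and ACGCAG in 16.9% and 2.82%. At microRNA genes GAGAGA stood in 10 of 31 centres (32.3%) and 4 flanks (12.9%), and ACGCAG in 6 centres (19.4%) and 2 flanks (6.45%). Either stood in 13 centres (41.9%), against 35.9% of other peaks. The words overlap in the run GAGAGACGCAG, and a match is a description of these letters only. Other words of that run were not more common at microRNA genes throughout. AGAGAC stood in 19.4% of their centres against 19.7% at other peaks, and GAGACG in 19.4% against 18.2%. AGACGC stood in 6.45% against 15.8%, and GACGCA in 9.68% against 15.3%.

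Both words stood in 3 microRNA peaks, those of the mir-229 cluster, mir-8186-2 and mir-4934. At the mir-51 family, only the mir-52 peak 538 bp upstream held either. The centres of 5 peaks are printed from the RefSeq WBcel235 genome, plus strand, 5′ to 3′, with these words in capitals, to show peaks with both words, with 1 and with none. Their places are III:2172105-2172205, II:18989-19089, IV:14033420-14033520, IV:11026162-11026262 and III:8865575-8865675.
mir-229 cluster: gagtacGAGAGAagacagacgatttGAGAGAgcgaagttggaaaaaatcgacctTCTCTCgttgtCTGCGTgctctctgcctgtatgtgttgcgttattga
mir-8186-2: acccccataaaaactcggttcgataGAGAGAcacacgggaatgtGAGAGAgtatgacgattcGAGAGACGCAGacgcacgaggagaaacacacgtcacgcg
mir-52: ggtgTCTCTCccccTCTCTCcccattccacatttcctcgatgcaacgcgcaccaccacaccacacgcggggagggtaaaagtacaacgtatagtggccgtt
mir-51: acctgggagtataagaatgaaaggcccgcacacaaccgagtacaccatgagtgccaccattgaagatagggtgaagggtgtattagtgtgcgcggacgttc
mir-80: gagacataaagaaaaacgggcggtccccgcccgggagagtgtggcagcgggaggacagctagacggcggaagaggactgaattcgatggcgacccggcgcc

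The well-studied genes lin-4, let-7, lsy-6, mir-1 and mir-35 had no peak. At lin-4 the pooled signal was 77.8, rank 4053, with 48.5 in replicate 1 and 33.7 in replicate 3. At let-7 the windows held a summit only in replicate 3, of 17.6, while a peak of 437.3 lay outside them at −1842 bp from the 5′ end of its long annotated entry. At lsy-6, which sets the left-right difference of a pair of taste neurons, no list held a summit. At the muscle microRNA mir-1 the pooled signal was 22.3 with 14.9 in replicate 3 and no summit in replicate 1, and at mir-35 it was 65.1 with 28.2 in replicate 1 and 42.9 in replicate 3. The pooled values inside the windows lay below the lowest signal of any peak, which was 89.6. The strongest pooled regions gave the same 35 bound genes, so this order largely follows from the threshold. Replicate values here are the highest in the windows, on their own scales, and were not compared with that level.

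Just under that level, 5 unbound genes with summits in both replicates had the highest pooled signals. At mir-87 the signal was 89.2 (32.8 in replicate 1 and 59.6 in replicate 3), and at mir-1829b 83.6 (50.001 and 25.7). At mir-2 it was 83.1 (60.6 and 32.1), at mir-34, a conserved stress-linked microRNA, 82.4 (25.9 and 60.1), and at lin-4 the 77.8 above. At each of the 5 the highest replicate values in the windows differed, with no common direction. These values were not matched within 100 bp and may belong to different summits. Each of the 5 genes had a region in all 3 longer lists, below the authors' threshold.

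Genes that make and use microRNAs were counted in the protein-coding promoter window. Of 22 listed genes 21 were matched by name, and 8 of these had a peak (38.1%), beside 12.3% of the 19973 protein-coding genes. When the window was narrowed to 500 bp upstream and 100 bp downstream, the count was 4 of 21, beside 9.61%, and ain-1, cgh-1, lin-28 and nhl-2 fell outside. The cropping genes drsh-1 and pash-1 had none, though pash-1 had a promoter summit among the strongest regions of either replicate taken alone. No peak was found at dcr-1, which encodes Dicer, or at the Argonaute genes alg-1 and alg-2. Of 6 genes for effector proteins and cofactors 5 were bound. The list was chosen with earlier results known, and the share was not tested.

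The bound effector genes included nhl-2, a cofactor of the silencing complex, with 764.8 (399 in replicate 1 and 363 in replicate 3) at 850 bp upstream, in a promoter shared with tag-340. The GW182-type gene ain-1 had 441.5 (221 and 219) at 934 bp upstream, and the RNA helicase gene cgh-1 had 355.2 (200 and 179) at 733 bp. The silencing-complex genes vig-1 and tsn-1 had 626.9 (350 and 277) and 156.0 (73.7 and 84.7), the latter in a promoter shared with F10G7.9. These distances are from a coding gene's annotated 5′ end and those at microRNA genes from the hairpin, so they are not on the same scale.

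Among deadenylation genes only ntl-2 had a peak, of 747.7 (390 and 352). Among genes that control precursor or mature microRNAs, lin-28, which blocks let-7 maturation, had 419.7 (217 and 204), and the nuclease gene xrn-2, which degrades mature microRNAs, had 114.2 (54.9 and 61.4). The genes ain-2, ccf-1, ccr-4, pup-2, paxt-1, dcs-1, ebax-1 and dbr-1 had no peak.

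The annotated attf-5 and unc-119 genes, whose sequence the transgene also carries, lay far from the peaks described. The place where the transgene is inserted is not known here. Of the 31 peaks at microRNA genes, the nearest to attf-5 on chromosome X was 407161 bp away. The nearest of them to unc-119 on chromosome III was 2028261 bp away. Distances to the remaining peaks of the thresholded list were not measured.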

How the data were processed

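Per the labels, ChIP-seq of tagged ATTF-5 was made from whole worms in 2 biological replicates of 1 group, with chromatin sheared by sonication. Per the notes deposited with the samples, the authors derived a list per replicate from its alignments and a control, a pooled list from both, and the thresholded list from these by irreproducible discovery rate (IDR). Caller and depth are not given in the sources used here. Values were therefore left unscaled, and how depth limits each list is unknown. The deposited lists have 10 columns. The authors' signal values were used as given, and the deposited −log10 q-values were used for description. Whether the replicates came from separate cultures beyond their label is not stated, so their spread may be in part technical.

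A summit is the region start plus the summit offset. Genes came from Ensembl release 115 and mature sequences from the RefSeq WBcel235 genome at Ensembl's mature coordinates, since no table of RefSeq microRNAs was used; 260 of 261 genes had a RefSeq symbol and a mature sequence (458 sequences), and families join genes with the same bases 2 to 8. Upstream follows the gene's strand, and a peak shared by several genes was counted once. A replicate summit was matched within 100 bp. Loci join same-strand hairpins with gaps of at most 2000 bp. Python 3.11.15, pandas 2.3.3 and numpy 2.4.6 were used, and the counting was tested on simulated positions. Of pathway genes, ntl-1 was not matched by name.

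Genes were named by a rule: every bound microRNA gene, the pathway genes, lin-4, let-7, lsy-6, mir-1, mir-35 and the mir-58 family, and the 5 unbound genes with the highest pooled signal and a summit in both replicates. The 6-base words were chosen after seeing the data. The members, lists, windows and alternatives were chosen with earlier results of these data known, although the rule for members uses annotation only. Alternatives left out either replicate, used the strongest pooled regions or only peaks above the median signal, dropped summits near a stronger one, and changed the windows.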

Additional observations from a re-analysis of the deposited data

How the results depend on the processing

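Of 61 alternative values, 51 stayed within 1.5 times the main count or within the spread of the main value, and 10 moved. With peaks above the median signal only, 6 genes had a summit near, 20 upstream and 21 in either window, from 16 peaks, and 6 stand-alone genes were bound, which follows from fewer peaks, while 14 intronic genes remained. With windows of 500 bp around and 2000 bp upstream, 33 genes had a summit near and 53 in either window, from 54 peaks, which follows from wider windows. Of the 53 genes, 26 were stand-alone. With a promoter window from 500 bp upstream to 100 bp downstream, 4 pathway genes had a peak, and ain-1, cgh-1, lin-28 and nhl-2 did not. Leaving out either replicate gave 33 to 37 bound genes from 28 to 33 peaks. The strongest regions of replicate 1, without replicate 3, kept 31 of the 35 genes and lost mir-4929, mir-60, mir-72 and mir-83. Those of replicate 3, without replicate 1, kept 33 and lost mir-71 and mir-8209. Both gave 9 pathway genes, pash-1 being added. When only hosts on the same strand counted, 13 of 68 intronic (19.1%) and 21 of 185 stand-alone genes (11.4%) were bound. No paired analysis was possible because the samples form 1 group. With no depth in the sources used here, a gene without a peak cannot be called free of binding.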

Other observations

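Some microRNA genes had strong peaks beyond the windows, within 2000 bp of the hairpin. The 6 strongest of these, each given to the nearest microRNA gene, were as follows. At the intronic mir-2216 a summit of 450.4 lay at −1792 bp from the 5′ end, and at the intronic mir-1824 a summit of 445.1 lay at 425 bp, past the hairpin. At let-7 a summit of 437.3 lay at −1842 bp, and with the window widened to 2000 bp let-7 would be among the bound genes. At mir-4938 a summit of 315.0 lay at 622 bp. At mir-71, beside the peak at −361 bp, a summit of 282.6 lay at −1496 bp, and at the intronic mir-353 a summit of 258.9 lay at −1031 bp. Their relation to these genes was not tested.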
